A study of Homo sapiens with 12 samples.

Results

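The genes described here are 45 cytokines, chemokines, cytokine receptors, NF-kB subunits, NF-kB feedback regulators and acute phase or adhesion proteins, taken by symbol from a list of inflammatory and secretory phenotype genes. They were found among the 58288 gene IDs of the count table. Of the 45, 43 had at least 1 count in the 12 libraries, and IL33 and CSF3 had none. With 13959 genes in all, 28 of the 45 had enough counts to be tested and 17 did not.

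The study asked how the loss of FLCN, the tumour suppressor gene of Birt-Hogg-Dubé syndrome, changes human kidney cells early and after long culture. It used HK2 cells, a line of kidney proximal tubule cells, which carried either a nontargeting shRNA (shControl in the labels) or a shRNA against FLCN. Cells were harvested below 30 passages (short-term) or after 120 (long-term), and polyA RNA of 3 libraries per group was sequenced on a MiSeq after preparation with a TruSeq RNA kit that does not mark the strand. The medium of all groups was DMEM supplemented with antibiotics and fetal bovine serum (10%). That gives 4 groups, nontarget and FLCN knockdown at each of the 2 times.

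The cells are stable lines taken after clonal selection. The sources used here do not say which clone a library was made from, so an effect of the shRNA and an effect of the clone cannot be told apart. The study's methods set a lower passage limit for long-term cells than the labels do. The libraries are labelled as biological replicates, and the study's methods speak of biological repeats in general. Neither says whether these libraries came from separate cultures, so the p-values measure the spread between these samples, which may be technical.

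Totals were 6284233 to 7279890 counts in short-term nontarget, 5825779 to 8151168 in short-term knockdown, 6262665 to 7592062 in long-term nontarget and 6031734 to 8991051 in long-term knockdown libraries. Levels are given as CPM (counts scaled to library size) with TMM factors. Replicates differed by more than counting error. For pairs of replicates 1 and 2 the ratio of chi-square to its degrees of freedom lay at 2.15 to 5.28. For pairs that include replicate 3 it was 4.35 to 4.44 in short-term nontarget cells and 6.83 to 13 in the other groups. In every group both pairs with replicate 3 were further apart than replicates 1 and 2. In long-term nontarget cells the pair of replicates 2 and 3 (6.83) was near that of 1 and 2 (5.28), and replicates 1 and 3 were the furthest apart (12.4), so there replicate 1 stood out as well. Counts of genes below are therefore also given without replicate 3 of all 4 groups, a choice made after seeing the data.

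FLCN itself had 12.7, 16.7 and 16.5 CPM in the short-term nontarget libraries and 5.95, 6.58 and 5.66 after short-term knockdown. In the long-term cells it had 9.92, 11.9 and 12.2 CPM without and 6.70, 6.31 and 7.97 CPM with the FLCN shRNA. Every knockdown library lay below every nontarget library of the same time (log2 fold change −1.33, edgeR adjusted p = 0.000112, and −0.70, edgeR adjusted p = 0.00611). The drop in FLCN was thus smaller in the long-term than in the short-term comparison. Every long-term nontarget library (9.92 to 12.2 CPM) also lay below every short-term nontarget library (12.7 to 16.7 CPM). The part of these FLCN differences in the results below was not tested. FLCN exons overlap those of AC055811.2.

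The proximal tubule label was met in part. Of 10 proximal tubule markers 4 had enough counts to be tested, and LRP2 and SLC22A6 had no count in any library. ANPEP, AQP1 and CUBN had 3, 7 and 29 counts over the 12 libraries and were not tested. The summed level of the list was 249 to 283 CPM in short-term nontarget and 338 to 362 in short-term knockdown libraries. It was 308 to 366 in long-term nontarget and 312 to 357 CPM in long-term knockdown libraries. PAX8 was the most abundant, with means of 162, 204, 251 and 164 CPM in the same order of groups. After short-term knockdown GGT1 (0.51, edgeR adjusted p = 0.0483), MME (0.48, edgeR adjusted p = 0.0107) and PAX8 (0.33, edgeR adjusted p = 0.0490) were higher. The sums of the long-term groups overlapped, but their markers moved apart. After long-term knockdown MME (1.17, edgeR adjusted p = 6.38e-07) and GGT1 (0.85, edgeR adjusted p = 0.000603) were higher and PAX8 was lower (−0.61, edgeR adjusted p = 0.000204). In the ageing comparisons PAX8 passed as higher and MME as lower in nontarget cells, and PAX8 passed as lower in knockdown cells. Their interaction passed as positive for MME and negative for PAX8. Of 5 epithelial markers 4 were tested, and KRT8 was the most abundant. Their summed level was 2524, 2379 and 2277 CPM in short-term nontarget, 2840, 2719 and 3576 in short-term knockdown, 2812, 2792 and 3125 in long-term nontarget and 2322, 2158 and 3032 in long-term knockdown libraries. The epithelial cadherin gene CDH1 had at most 0.906 CPM in any library. The highest epithelial sum of 3 groups was that of replicate 3. EPCAM was lower after long-term knockdown (−0.59, edgeR adjusted p = 0.0237) and over time in knockdown cells (−1.31, edgeR adjusted p = 4.06e-05), with an interaction of −1.11 (edgeR adjusted p = 0.00674). Over time KRT19 was lower in nontarget (−2.70, edgeR adjusted p = 4.69e-07) and knockdown cells (mean 32.6 to 4.19 CPM, edgeR adjusted p = 3.07e-08). KRT18 was higher over time in nontarget cells (0.44, edgeR adjusted p = 0.0307), with an interaction of −0.54 (edgeR adjusted p = 0.0427). The part of these marker changes in the results below was not tested.

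None of the 6 leukocyte markers had enough counts to be tested, and PTPRC and CD3E had no count. CD14 was the most abundant of them. Their summed level was 0.410 to 0.786 CPM in short-term nontarget, 1.02 to 1.14 in short-term knockdown, 0.134 to 0.518 in long-term nontarget and 0.347 to 0.880 in long-term knockdown libraries. None of the 3 endothelial markers was tested either. Their sum was 0.683 to 1.10 CPM in short-term nontarget, 0.354 to 1.01 in short-term knockdown, 0.929 to 2.20 in long-term nontarget and 0 to 0.170 in long-term knockdown libraries, with VWF the most abundant in all groups but short-term nontarget, where PECAM1 was. Of the 5 fibroblast markers 3 were tested, COL1A1 was the most abundant in all groups but short-term nontarget, where LUM was, and their sum was 49.2 to 50.4, 52.3 to 56.8, 24.6 to 31.7 and 26.5 to 36.6 CPM in the same order of groups. The fibroblast sum was thus lower in every long-term library than in every short-term library. From short-term to long-term nontarget cells the mean of LUM went from 23.5 to 0.960 CPM, and LUM passed the test as lower. The mean of PDGFRB went from 3.99 to 7.41 CPM there, which did not pass the test. LUM was higher (3.69, edgeR adjusted p = 1.90e-06) and PDGFRB lower (−3.56, edgeR adjusted p = 1.00e-05) after long-term knockdown, and the part of this list in the results below was not tested.

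NF-kB is a family of transcription factor dimers that rest in the cytoplasm bound to inhibitors and enter the nucleus when receptors such as those for IL-1 and TNF lead to the inhibitors' breakdown. Among the genes that NF-kB switches on are chemokines, cytokines, adhesion molecules and its own inhibitors, which then end the response. Tubule cells of the injured kidney are a known source of such chemokines and of IL-6 family cytokines, whose receptors signal through IL6ST, JAK kinases and STAT factors.

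Levels between genes were compared per kb of exon. In short-term nontarget cells the highest mean levels of the 45 genes were those of IL32 (35.1 ± 2.70 CPM per kb, SD, n = 3), CXCL8 (33.6 ± 13.7) and NFKBIA (32.8 ± 3.12), which lay within their spread of each other. In long-term knockdown cells CXCL5 (50.4 ± 2.99 CPM per kb) and CXCL8 (41.6 ± 8.93) came first, followed by OSMR (26.9 ± 0.772). IL32 stood at 15.6 ± 2.42 and NFKBIA at 15.2 ± 2.61 CPM per kb there. The heat map of the tested genes shows each library against the short-term nontarget mean.

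**Figure D1:**
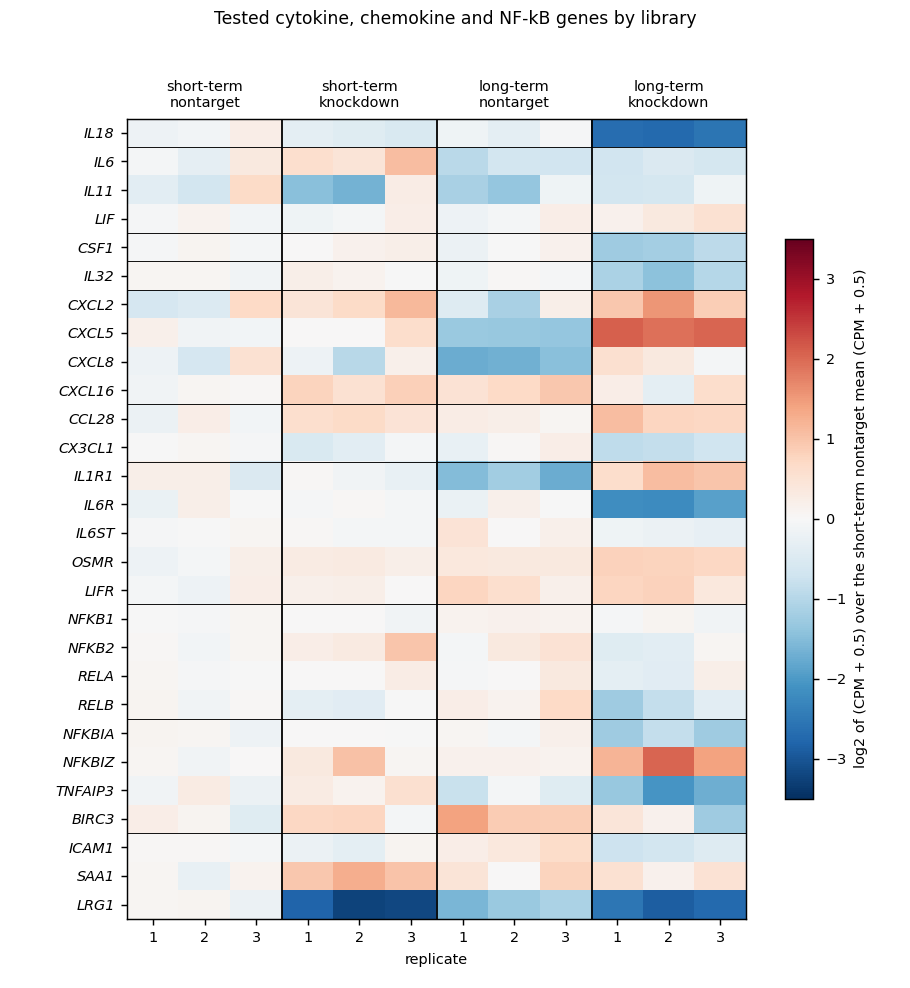
Colour gives the log2 ratio of the level in each library (CPM + 0.5) to the short-term nontarget mean (CPM + 0.5) for the 28 tested genes, in rows by role, with the 12 libraries in columns by group and replicate. In the 3 long-term knockdown libraries CXCL5 was at 134, 119 and 130 CPM (red), against a short-term nontarget mean of 31.0 CPM, and IL18 at 8.55, 8.22 and 9.16 CPM (blue), against 56.6 CPM.

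Short-term knockdown, compared with short-term nontarget cells, asks what a lower FLCN level does early. SAA1, IL6 and CCL28 rose, and LRG1 and IL18 fell, while the other 23 tested genes did not pass the test. By edgeR's quasi-likelihood F test (Benjamini-Hochberg over all genes tested, limit 0.05), 3 of the 28 were higher, where 5.62% of all tested genes were, and 2 were lower, where 4.71% of all were. These shares are close to those of all genes at this size of list. The median log2 fold change of the 28 was 0.11, and that of all tested genes was 0.00. The count of 5 fell to 3 without short-term nontarget replicate 1 or short-term knockdown replicate 3, and to 2 without short-term nontarget replicate 2 or short-term knockdown replicate 2. It was 7, 3 higher and 4 lower, without replicate 3 of all groups.

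Long-term knockdown, compared with long-term nontarget cells, asks for the effect of the FLCN shRNA kept up over many passages. CXCL5, IL1R1, CXCL8, CXCL2, NFKBIZ, CCL28 and OSMR rose. IL18, IL6R, LRG1, TNFAIP3, RELB, BIRC3, NFKBIA, CSF1, IL32, ICAM1, CX3CL1 and IL6ST fell. That is 7 of 28 higher in edgeR's test, where 13.7% of all tested genes were, and 12 lower, where 15.8% were. The median log2 fold change was −0.35, against 0.00 over all tested genes. Without replicate 3 of all groups 23 were called, 9 higher and 14 lower.

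Ageing of nontarget cells asks what long culture does without the FLCN shRNA. BIRC3 and OSMR were higher in the long-term cells, 2 of 28 in edgeR's test, where 3.17% of all tested genes were. IL1R1, CXCL8, LRG1, CXCL5 and IL6 were lower, 5 of 28, where 4.38% were. The median log2 fold change was 0.04 for the 28 and 0.01 for all. The count of 7 fell to 4 without short-term nontarget replicate 1, and was 9, 3 higher and 6 lower, without replicate 3 of all groups.

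Ageing of knockdown cells asks the same with the FLCN shRNA present. CXCL5, IL1R1, NFKBIZ, LIFR and OSMR were higher in the long-term cells, 5 of 28 in edgeR's test, where 11.5% of all tested genes were. IL18, IL6R, TNFAIP3, IL6, IL32, CSF1, NFKBIA, NFKB2, CX3CL1 and ICAM1 were lower, 10 of 28, where 15.2% were. The median log2 fold change was −0.36, against 0.01 over all tested genes. Leaving out replicate 3 of all groups gave 20, 8 higher and 12 lower.

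Whether the effect of knockdown differed between the times was tested as an interaction, the long-term minus the short-term log2 fold change. It was positive for IL1R1, CXCL5, CXCL8 and LRG1, 4 of 28 in edgeR's test, where 4.98% of all tested genes were. It was negative for IL6R, IL18, BIRC3, TNFAIP3, CXCL16, SAA1, CSF1, IL32, NFKBIA, NFKB2, RELB and ICAM1, 12 of 28, where 8.43% were. The median interaction was −0.46 for the 28 and 0.00 for all tested genes. Without replicate 3 of all groups 17 were called, 6 positive and 11 negative. The 5 comparisons share groups, so the lists are not independent of each other, and in bulk RNA fewer cells of a type and less RNA per cell cannot be told apart.

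**Figure D2:**
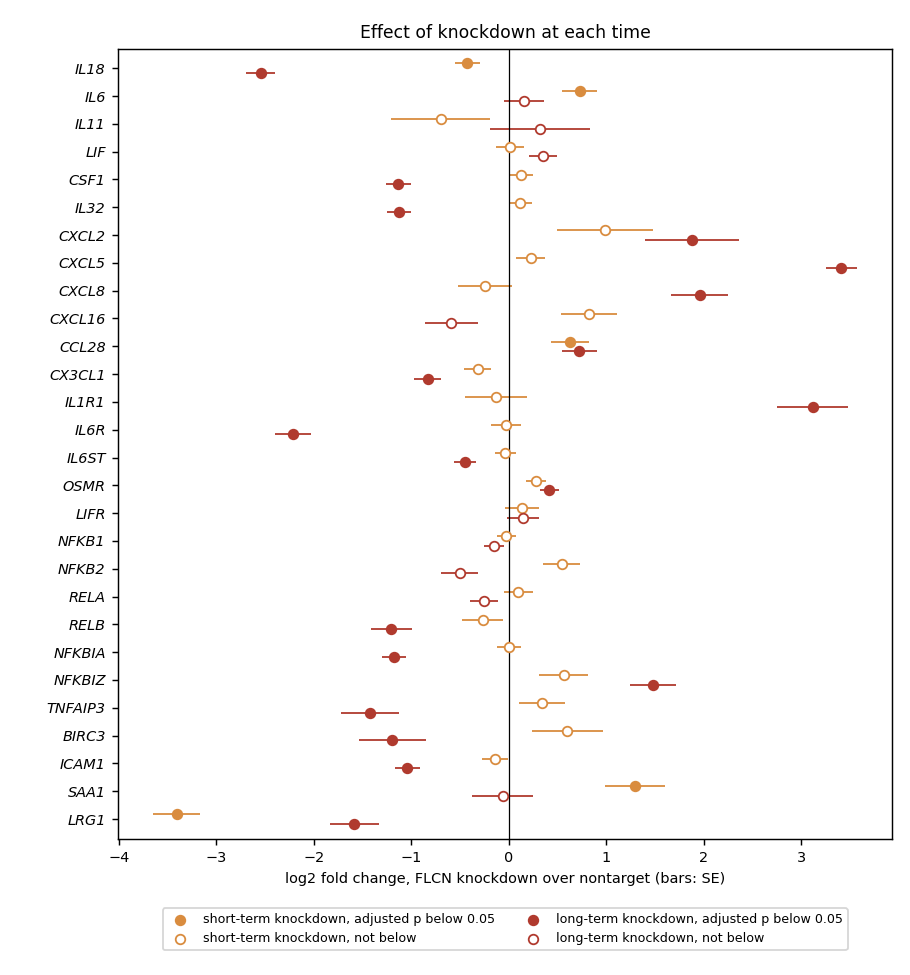
Points give the log2 fold change of FLCN knockdown over nontarget cells for the 28 tested genes after short-term (orange) and long-term (red) knockdown, with bars of 1 SE and filled points at an edgeR adjusted p below 0.05. Of the 28, 5 points are filled for short-term and 19 for long-term knockdown, from −2.54 for IL18 to 3.41 for CXCL5 in the long-term cells.

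CXCL5, a chemokine that draws neutrophils through the receptor CXCR2, had 35.3, 28.6 and 29.2 CPM in the short-term nontarget libraries and 31.1, 31.3 and 47.3 CPM after short-term knockdown. It had 12.2, 12.1 and 11.8 CPM in long-term nontarget cells and 134, 119 and 130 CPM in long-term knockdown cells. The long-term knockdown libraries stood above all others and the long-term nontarget libraries below all others, while the short-term groups overlapped. The log2 fold change of long-term knockdown was 3.41 (SE 0.159, edgeR adjusted p = 1.02e-10), a 10.6-fold rise, against 0.23 (SE 0.149, edgeR adjusted p = 0.404) for short-term knockdown. Over time the gene fell in nontarget cells (−1.37, edgeR adjusted p = 3.92e-05) and rose in knockdown cells (1.81, edgeR adjusted p = 5.67e-08), and the interaction was 3.18 (edgeR adjusted p = 2.23e-08). Its gene spans chr4:73995642-73998779 on the minus strand of GRCh38.

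CXCL8 (interleukin 8), the main neutrophil chemokine, had 68.2, 50.3 and 111 CPM in short-term nontarget, 67.4, 39.0 and 87.1 in short-term knockdown, 22.4, 23.7 and 27.2 in long-term nontarget and 113, 97.9 and 72.9 CPM in long-term knockdown libraries. The long-term nontarget libraries were below all others, and the other 3 groups overlapped. It rose by a log2 fold change of 1.96 after long-term knockdown (SE 0.293, edgeR adjusted p = 0.000115) and had −0.25 after short-term knockdown (SE 0.277, edgeR adjusted p = 0.661), with an interaction of 2.21 (edgeR adjusted p = 0.00149). Over time in nontarget cells it fell by 1.64 on the log2 scale (edgeR adjusted p = 0.00239), a call that was lost when no filter on low counts was used (edgeR adjusted p = 0.0540). In knockdown cells the ageing value was 0.56 (edgeR adjusted p = 0.151). It passed without short-term knockdown replicate 3 (0.83, edgeR adjusted p = 0.0305) and without replicate 3 of all groups (0.98, edgeR adjusted p = 0.0194).

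CXCL2, another CXCR2 ligand, had low counts, 168 over the 12 libraries, and 12.5% of its 50-base exon words also occur in CXCL3 or CXCL1, so its counts are uncertain. Its level was 0.310 to 1.55 CPM in long-term nontarget and 2.71 to 4.70 CPM in long-term knockdown libraries, which did not overlap. The log2 fold change was 1.88 (edgeR adjusted p = 0.00680). It moved to 2.54 without long-term nontarget replicate 3 (edgeR adjusted p = 0.00370) and to 2.67 without replicate 3 of all groups (edgeR adjusted p = 0.000238). CXCL16, a membrane-bound chemokine that also acts as a scavenger receptor, had 1.91 to 5.43 CPM over all libraries. Knockdown had an effect of 0.82 in the short-term (edgeR adjusted p = 0.0764) and −0.59 in the long-term cells (edgeR adjusted p = 0.116), neither of which passed the test. The interaction did (−1.42, edgeR adjusted p = 0.0220), but was lost in 4 of 12 fits without 1 library, those without replicate 1 of the short-term nontarget group (edgeR adjusted p = 0.0597), short-term knockdown replicate 1 (0.0505), long-term nontarget replicate 3 (0.0593) or long-term knockdown replicate 2 (0.0539). Without long-term knockdown replicate 3 the long-term effect (−0.84, edgeR adjusted p = 0.0377) and ageing of knockdown cells (−0.83, edgeR adjusted p = 0.0456) passed, against −0.58 for the latter with all libraries (edgeR adjusted p = 0.136). CXCL16 exons overlap those of MED11 on the opposite strand.

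**Figure D3:**
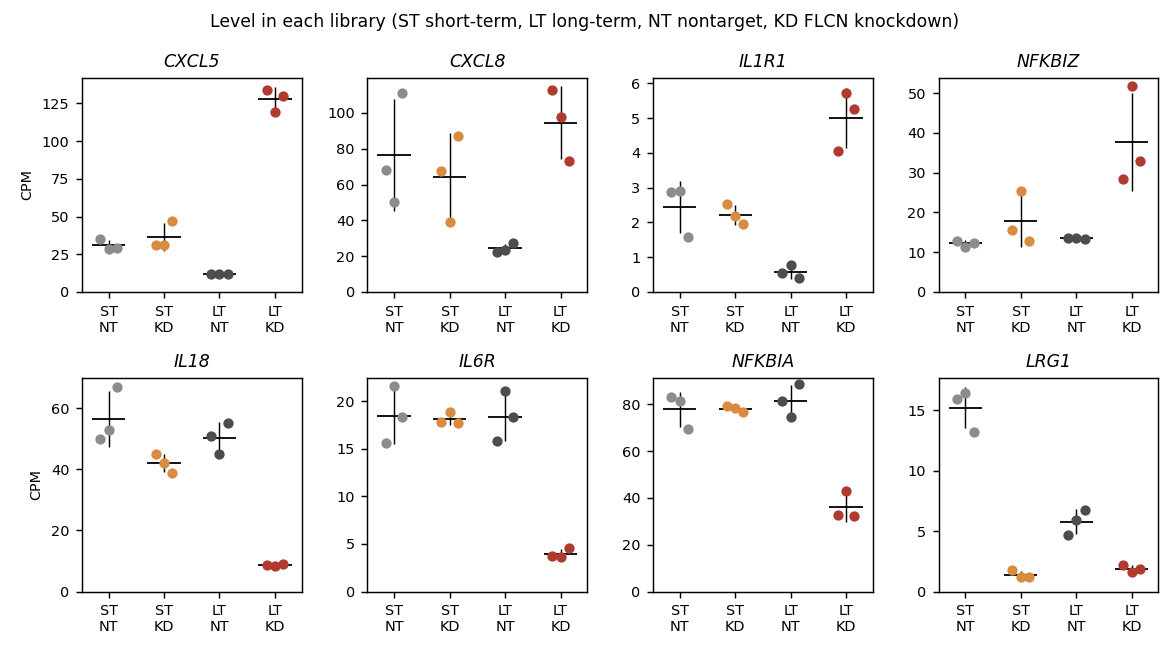
Each panel gives the level of a gene in CPM in the 3 libraries of each group (points), with the group mean (horizontal line) and SD (vertical line, n = 3). The long-term knockdown libraries of CXCL5 lie at 119 to 134 CPM, above all other libraries, and those of IL6R at 3.67 to 4.58 CPM, below all other libraries.

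Of the 8 listed CXC genes 6 lie in a cluster on chromosome 4, while CXCL12 and CXCL16 lie on chromosomes 10 and 17. In the cluster CXCL6, CXCL1, CXCL5, CXCL3 and CXCL2 start 96.0, 129, 255, 296 and 357 kb from the start of CXCL8. Within 1000 kb of the cluster from CXCL8 to CXCL2, a window chosen after the values were seen, 7 other genes were tested. After long-term knockdown 3 of them passed as higher, MTHFD2L (1.10, edgeR adjusted p = 0.00450), EREG (1.83, edgeR adjusted p = 2.51e-06) and BTC (1.24, edgeR adjusted p = 0.00400), and AREG passed as lower (−0.57, edgeR adjusted p = 0.0293), where 13.7% of all tested genes were higher and 15.8% lower. EREG, BTC and AREG encode ligands of the EGF receptor. After short-term knockdown none was higher and 3 were lower, AFP (−1.56, edgeR adjusted p = 0.0313), EREG (−0.87, edgeR adjusted p = 0.00740) and AREG (−1.17, edgeR adjusted p = 0.000150), where 5.62% of all were higher and 4.71% lower. The median log2 fold change of the 7 was 0.11 after long-term and −0.42 after short-term knockdown, so the rise in the cluster was not shared by all of its tested neighbours. COX18, on the far side of CXCL8, had 0.11 after long-term knockdown (edgeR adjusted p = 0.690) and ANKRD17 did not pass the test either. All 7 were named after their values were seen.

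**Figure D4:**
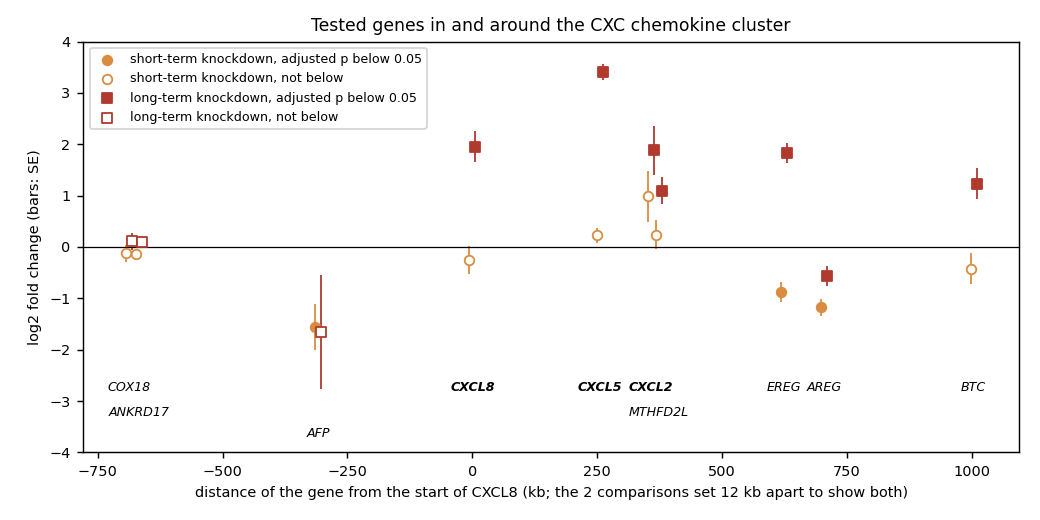
The log2 fold change of FLCN knockdown (bars of 1 SE) is plotted against the distance in kb from the start of CXCL8 for the tested genes of the region, with the listed chemokines in bold and filled symbols at an edgeR adjusted p below 0.05. After long-term knockdown (red squares) CXCL8, CXCL5 and CXCL2 lie at 1.96, 3.41 and 1.88, and AREG lies at −0.57.

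After 3 CXC genes had passed as higher, promoters were searched for the kappa B motif, the binding motif of NF-kB, on both strands. The pattern was GGGRNNYYCC, where R is A or G, Y is C or T and N is any base. RefSeq (GRCh38.p14) promoters of 300 bases, 250 before and 50 after the start, were available for 33 of the 45 genes. The motif was found in 11.3% of all promoters (3956 of 35116), and in at least 1 promoter of 13.3% of all genes (3619 of 27305) and 17 of the 33 listed genes. It was present for 3 of 7 genes that rose after long-term knockdown, 6 of 8 that fell and 3 of 6 tested genes that did not pass the test. The same 11 letters, GGGAATTTCCC, in which a match on each strand overlaps, were found in CXCL1, CXCL2, CXCL3, CXCL5 and CXCL6, at −79, −78, −79, −91 and −90 from the start, and no match was found in the 300 bases of CXCL8. The promoters of CXCL5 and IL6R are printed 5′ to 3′, as those of genes with the largest rise and among the largest falls after long-term knockdown, with matches in capitals. CXCL5 is at chr4:73998628-73998927 on the minus strand and has the match at bases 160 to 170, and IL6R is at chr1:154405093-154405392 on the plus strand and has none. IL1R1 had 4 entries, also with no match, and is not printed because the start used in these cells was not measured. A match describes letters only, and sites that depart from the pattern in any letter were not counted, so no match does not mean no site.
CXCL5: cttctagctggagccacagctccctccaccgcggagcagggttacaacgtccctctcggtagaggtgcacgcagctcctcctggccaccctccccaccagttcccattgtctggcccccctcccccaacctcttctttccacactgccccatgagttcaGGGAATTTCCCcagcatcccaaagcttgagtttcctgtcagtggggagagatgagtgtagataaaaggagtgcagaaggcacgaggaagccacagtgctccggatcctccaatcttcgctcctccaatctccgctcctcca
IL6R: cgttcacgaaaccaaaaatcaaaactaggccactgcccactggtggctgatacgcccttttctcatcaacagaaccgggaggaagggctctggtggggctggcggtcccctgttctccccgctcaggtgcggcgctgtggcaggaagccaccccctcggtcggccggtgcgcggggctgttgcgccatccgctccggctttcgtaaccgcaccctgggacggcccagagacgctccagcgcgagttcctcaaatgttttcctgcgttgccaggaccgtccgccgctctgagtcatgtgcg

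Of the other chemokines, CCL28, a mucosal chemokine for lymphocytes, had 4.92, 6.83 and 5.34 CPM in short-term nontarget, 8.86, 9.36 and 8.14 in short-term knockdown, 6.97, 6.66 and 5.95 in long-term nontarget and 12.5, 9.98 and 9.67 CPM in long-term knockdown libraries. The knockdown libraries were above the nontarget libraries at both times. It rose after long-term knockdown (0.72, SE 0.182, edgeR adjusted p = 0.00572). After short-term knockdown it passed by a small margin (0.63, SE 0.192, edgeR adjusted p = 0.0446). That call was lost with DESeq2 (adjusted p = 0.0969), with no filter on low counts (edgeR adjusted p = 0.0892), with only the 2 groups compared (0.0556) and without replicate 3 of all groups (0.0704). It was also lost in 5 of 6 fits without 1 library, all but that without short-term nontarget replicate 2, with edgeR adjusted p = 0.0561 without short-term knockdown replicate 3 and up to 0.192 without short-term nontarget replicate 1. The interaction was 0.10 (edgeR adjusted p = 0.869).

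CX3CL1 (fractalkine), a membrane-anchored chemokine for monocytes and lymphocytes, had 52.4, 55.3 and 51.8 CPM in short-term nontarget, 36.7, 40.9 and 50.6 in short-term knockdown, 44.4, 54.4 and 63.1 in long-term nontarget and 28.4, 29.9 and 32.7 CPM in long-term knockdown libraries. Lowest of all were the long-term knockdown libraries. The gene fell after long-term knockdown (−0.83, SE 0.142, edgeR adjusted p = 0.000230) and had −0.32 after short-term knockdown (edgeR adjusted p = 0.174), with an interaction of −0.51 (edgeR adjusted p = 0.101). Without replicate 3 of all groups the short-term effect passed (−0.47, edgeR adjusted p = 0.00908), and the interaction passed without long-term nontarget replicate 1 (−0.64, edgeR adjusted p = 0.0315). It also fell over time in knockdown cells (−0.49, edgeR adjusted p = 0.0168), which was lost without short-term knockdown replicate 3 (edgeR adjusted p = 0.0850) or long-term knockdown replicate 1 (0.0678).

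Among the IL-1 family ligands only IL18, a cytokine activated by caspase-1 that induces interferon gamma, was tested. It had 49.9, 52.9 and 67.1 CPM in short-term nontarget, 44.9, 42.1 and 38.9 in short-term knockdown, 50.8, 44.9 and 55.2 in long-term nontarget and 8.55, 8.22 and 9.16 CPM in long-term knockdown libraries. Long-term knockdown libraries lay far below all others. IL18 fell by 2.54 on the log2 scale after long-term knockdown (SE 0.148, edgeR adjusted p = 1.37e-09), or to a level 5.83-fold lower, and by 2.28 over time in knockdown cells (edgeR adjusted p = 6.03e-09). In nontarget cells the ageing value was −0.17 (edgeR adjusted p = 0.542), and the interaction was −2.12 (edgeR adjusted p = 1.03e-06). The short-term effect was smaller (−0.43, edgeR adjusted p = 0.0405). It was lost without replicate 2 (edgeR adjusted p = 0.0687) or 3 (0.223) of the short-term nontarget group, without short-term knockdown replicate 1 (0.0648), 2 (0.0961) or 3 (0.117), and without replicate 3 of all groups (−0.24, edgeR adjusted p = 0.196). IL18 has no entry in the promoter table used.

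IL6, the founding cytokine of its family and an inducer of the acute phase response, had 20.6, 17.3 and 27.5 CPM in short-term nontarget, 32.8, 29.7 and 46.4 in short-term knockdown, 11, 13.8 and 13.6 in long-term nontarget and 13.4, 15.3 and 14.1 CPM in long-term knockdown libraries. The short-term knockdown libraries were the highest, and both long-term groups were low and overlapped. It rose after short-term knockdown (0.73, SE 0.182, edgeR adjusted p = 0.0150), which was lost without replicate 1 (edgeR adjusted p = 0.0733) or 2 (0.0960) of the short-term nontarget group or short-term knockdown replicate 3 (0.0721). After long-term knockdown the value was 0.16 (edgeR adjusted p = 0.617), and the interaction did not pass (−0.57, edgeR adjusted p = 0.189). IL6 fell over time in knockdown cells (−1.34, edgeR adjusted p = 4.32e-05) and in nontarget cells (−0.77, edgeR adjusted p = 0.0204). The second of these was lost without replicate 1 (edgeR adjusted p = 0.0526) or 3 (0.123) of the short-term nontarget group or long-term nontarget replicate 1 (0.0833). Of its exon words 15.3% are shared with AC073072.1 on the opposite strand, so its counts are uncertain.

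IL11, a profibrotic member of the IL-6 family, passed no test with all 12 libraries and no term for the replicate number, and in each group its highest library was replicate 3. In the short-term cells replicate 3 had 104 CPM with the nontarget shRNA and 78.8 with the FLCN shRNA, and replicates 1 and 2 had 41.6 to 51.0 and 20.6 to 23.5 CPM. In the long-term cells replicate 3 had 59.4 and 59.5 CPM, and replicates 1 and 2 had 25.1 to 29.6 and 41.5 to 42.7 CPM. After short-term knockdown the log2 fold change was −0.70 (edgeR adjusted p = 0.470), and without short-term knockdown replicate 3 it was −1.56 (edgeR adjusted p = 0.0279). Without replicate 3 of all groups, a fit chosen after seeing the data, all 5 comparisons passed. That fit drops the highest IL11 library of each group, so its p-values leave out the spread that replicate 3 adds. Its values were −1.07 for short-term knockdown (edgeR adjusted p = 6.11e-06), 0.62 for long-term knockdown (0.000799) and −0.77 for ageing of nontarget cells (0.000355). For ageing of knockdown cells it gave 0.93 (edgeR adjusted p = 1.17e-05) and for the interaction 1.69 (6.01e-07). The interaction also passed without short-term knockdown replicate 3 alone (1.88, edgeR adjusted p = 0.0311), against 1.02 with all libraries (edgeR adjusted p = 0.420).

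LIF, the leukemia inhibitory factor, ranged from 31.5 to 52.2 CPM and passed no test with all libraries and no block. After long-term knockdown its log2 fold change was 0.35 (edgeR adjusted p = 0.0774). With the replicate number as a block the adjusted p was 0.0190 in edgeR's test, without replicate 3 of all groups it was 0.0219 and without long-term nontarget replicate 3 it was 0.0331. For ageing of knockdown cells the value was 0.34 (edgeR adjusted p = 0.0874), with an adjusted p of 0.0239 with the block, 0.0288 without replicate 3 of all groups and 0.0306 without short-term knockdown replicate 3. The interaction (0.33, edgeR adjusted p = 0.324) passed without replicate 3 of all groups (0.53, edgeR adjusted p = 0.0419). LIF exons overlap those of LIF-AS1 on the opposite strand.

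CSF1, the growth factor of macrophages, had 47.0, 52.1 and 46.5 CPM in short-term nontarget, 49.0, 54.2 and 56.1 in short-term knockdown, 42.2, 48.2 and 54.2 in long-term nontarget and 20, 21 and 25.3 CPM in long-term knockdown libraries. The first 3 groups overlapped, and the long-term knockdown libraries were the lowest. CSF1 fell by 1.13 on the log2 scale after long-term knockdown (SE 0.129, edgeR adjusted p = 3.44e-06), with 0.13 in the short-term comparison (edgeR adjusted p = 0.596) and an interaction of −1.26 (edgeR adjusted p = 8.59e-05). Over time it fell in knockdown cells (−1.27, edgeR adjusted p = 1.11e-06).

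IL32, a cytokine that induces TNF and other cytokines, had 118, 118 and 103 CPM in short-term nontarget, 131, 124 and 111 in short-term knockdown, 102, 117 and 109 in long-term nontarget and 52.1, 41.7 and 56.8 CPM in long-term knockdown libraries. Only the long-term knockdown libraries stood apart from the other groups. The log2 fold change was −1.12 after long-term knockdown (SE 0.120, edgeR adjusted p = 1.70e-06), 0.12 in the short-term comparison (edgeR adjusted p = 0.610) and −1.28 for ageing of knockdown cells (edgeR adjusted p = 4.41e-07). The interaction was −1.24 (edgeR adjusted p = 5.41e-05).

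Of the 5 receptor genes, all of which were tested, IL6R encodes the IL-6 binding chain. It had 15.6, 21.6 and 18.4 CPM in short-term nontarget, 17.8, 18.9 and 17.7 in short-term knockdown, 15.8, 21.1 and 18.4 in long-term nontarget and 3.70, 3.67 and 4.58 CPM in long-term knockdown libraries. Libraries of the first 3 groups overlapped, and those of long-term knockdown were far below. IL6R fell by 2.21 on the log2 scale after long-term knockdown (SE 0.186, edgeR adjusted p = 1.17e-07), against −0.03 after short-term knockdown (SE 0.156, edgeR adjusted p = 0.949), and the interaction was −2.19 (edgeR adjusted p = 8.55e-06). It fell by 2.19 over time in knockdown cells (edgeR adjusted p = 1.48e-07), while nontarget cells had −0.01 (edgeR adjusted p = 0.989).

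IL6ST (gp130) is the signalling chain shared by the receptors of the IL-6 family. It had 149, 153 and 161 CPM in short-term nontarget, 158, 147 and 147 in short-term knockdown, 216, 155 and 175 in long-term nontarget and 139, 134 and 125 CPM in long-term knockdown libraries. The long-term knockdown libraries were again the lowest, with less distance to the rest. It fell after long-term knockdown (−0.45, SE 0.110, edgeR adjusted p = 0.00470), and the interaction did not pass (−0.41, edgeR adjusted p = 0.0907), although it did without long-term nontarget replicate 2 (−0.53, edgeR adjusted p = 0.0291). Its exons overlap those of AC008914.1 on the opposite strand.

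OSMR, the receptor chain for oncostatin M, had 100, 108 and 130 CPM in short-term nontarget, 137, 141 and 131 in short-term knockdown, 147, 143 and 143 in long-term nontarget and 198, 193 and 187 CPM in long-term knockdown libraries. The long-term knockdown libraries were the highest and the short-term nontarget libraries the lowest. OSMR rose after long-term knockdown (0.42, SE 0.0986, edgeR adjusted p = 0.00373) and over time in knockdown cells (0.50, edgeR adjusted p = 0.00111). After short-term knockdown it had 0.28 (edgeR adjusted p = 0.0917), which passed without replicate 3 of the short-term nontarget group (0.39, edgeR adjusted p = 0.0239) and without replicate 3 of all groups (0.42, edgeR adjusted p = 0.00145). The rise over time in nontarget cells (0.36, edgeR adjusted p = 0.0341) was lost in 5 of 6 fits without 1 library. Those were without replicate 1 (edgeR adjusted p = 0.206) or 2 (0.151) of the short-term nontarget group and without long-term nontarget replicate 1 (0.0787), 2 (0.0820) or 3 (0.0744). OSMR and RICTOR overlap on opposite strands.

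LIFR, the receptor chain for LIF, had 18.3, 16.9 and 22.8 CPM in short-term nontarget, 21.8, 22.2 and 19.5 in short-term knockdown, 32.6, 29.1 and 21.9 in long-term nontarget and 32.9, 33.9 and 25.3 CPM in long-term knockdown libraries. In both long-term groups replicate 3 was the lowest. It rose over time in knockdown cells (0.54, SE 0.167, edgeR adjusted p = 0.0232), which was lost without short-term knockdown replicate 1 (edgeR adjusted p = 0.0537) or 3 (0.0642) or long-term knockdown replicate 1 (0.0910) or 2 (0.0974). In nontarget cells the value was 0.53 (edgeR adjusted p = 0.0686), which passed without long-term nontarget replicate 3 (0.67, edgeR adjusted p = 0.0225), without replicate 3 of all groups (0.80, edgeR adjusted p = 0.000338) and with no filter on low counts (edgeR adjusted p = 0.0228). LIFR exons overlap those of LIFR-AS1.

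IL1R1, the signalling receptor of IL-1, had 213 counts over the 12 libraries. Its level was 1.57 to 2.89 CPM in short-term nontarget, 1.95 to 2.53 in short-term knockdown, 0.388 to 0.774 in long-term nontarget and 4.04 to 5.72 CPM in long-term knockdown libraries, so long-term knockdown was the highest group and long-term nontarget the lowest. The log2 fold change was 3.12 after long-term knockdown (SE 0.364, edgeR adjusted p = 4.50e-06), −0.13 after short-term knockdown (edgeR adjusted p = 0.864), −2.11 for ageing of nontarget cells (edgeR adjusted p = 0.00304) and 1.14 for ageing of knockdown cells (edgeR adjusted p = 0.00660). The interaction was 3.25 (edgeR adjusted p = 0.000195). IL1R1 exons overlap those of IL1R1-AS1 on the opposite strand.

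Among the 4 NF-kB subunit genes, NFKB1 (54.8 to 66.3 CPM) and RELA (54.4 to 89.8 CPM), which encode the p50 precursor and p65, passed no test with all libraries. NFKB1 had −0.03 after short-term and −0.15 after long-term knockdown (edgeR adjusted p = 0.920 and 0.275). For RELA the values were 0.10 and −0.26 (edgeR adjusted p = 0.763 and 0.216). RELA passed without replicate 3 of all groups after long-term knockdown (−0.33, edgeR adjusted p = 0.0149) and for ageing of knockdown cells (−0.37, edgeR adjusted p = 0.00597). Without long-term knockdown replicate 3 alone, long-term knockdown (−0.46, edgeR adjusted p = 0.0111), ageing of knockdown cells (−0.45, edgeR adjusted p = 0.0141) and the interaction (−0.56, edgeR adjusted p = 0.0330) passed as well.

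NFKB2, which encodes the p52 precursor of the noncanonical pathway, had 62.6, 57.0 and 63.8 CPM in short-term nontarget, 71.9, 76.8 and 120 in short-term knockdown, 57.8, 77.0 and 86.3 in long-term nontarget and 45.5, 47.4 and 63.6 CPM in long-term knockdown libraries. Short-term knockdown libraries were above and long-term knockdown libraries mostly below the nontarget libraries of their time, with overlap in the long-term cells. The effects of knockdown were 0.55 (edgeR adjusted p = 0.0840) and −0.50 (edgeR adjusted p = 0.0589), and their difference passed the test (−1.05, SE 0.269, edgeR adjusted p = 0.0152). NFKB2 also fell over time in knockdown cells (−0.78, edgeR adjusted p = 0.00628), with −0.52 without short-term knockdown replicate 3 (edgeR adjusted p = 0.0241). The long-term effect passed in edgeR's test with the replicate number as a block (adjusted p = 0.00224), with no filter on low counts (0.00125), with only the 2 groups compared (0.0456), without long-term nontarget replicate 1 (0.0213), without long-term knockdown replicate 3 (0.0178) and without replicate 3 of all groups (0.00161), and with DESeq2 (adjusted p = 0.0478). The short-term effect passed without short-term knockdown replicate 1 (0.68, edgeR adjusted p = 0.0467) and with no filter on low counts (edgeR adjusted p = 0.000970).

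RELB, the partner of p52, had 18.5, 15.8 and 17.8 CPM in short-term nontarget, 13.5, 12.9 and 17 in short-term knockdown, 20.5, 19.0 and 28.2 in long-term nontarget and 7.05, 9.54 and 13.4 CPM in long-term knockdown libraries. Every long-term knockdown library was below every long-term nontarget library, and in both knockdown groups replicate 3 was the highest. RELB fell by 1.21 on the log2 scale after long-term knockdown (SE 0.210, edgeR adjusted p = 0.000285) and had −0.27 after short-term knockdown (edgeR adjusted p = 0.487). The interaction (−0.94, edgeR adjusted p = 0.0437) was lost in 8 of 12 fits without 1 library. Those were without replicate 1 (edgeR adjusted p = 0.0676), 2 (0.103) or 3 (0.0730) of the short-term nontarget group, short-term knockdown replicate 1 (0.0608) or 3 (0.0874), long-term nontarget replicate 3 (0.110) and long-term knockdown replicate 1 (0.124) or 2 (0.0860). For ageing of knockdown cells the value was −0.55 (edgeR adjusted p = 0.0719). It passed in edgeR's test with the replicate number as a block (−0.56, adjusted p = 0.0136), without long-term knockdown replicate 3 (−0.80, 0.00935), without replicate 3 of all groups (−0.69, 0.00757) and with no filter on low counts (0.0311).

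NFKBIA encodes the inhibitor IκBα, which holds NF-kB in the cytoplasm and is itself a target of NF-kB. It had 83.0, 81.4 and 69.4 CPM in short-term nontarget, 79.3, 78.4 and 76.8 in short-term knockdown, 81.3, 74.5 and 88.5 in long-term nontarget and 32.5, 43.1 and 32.4 CPM in long-term knockdown libraries. The first 3 groups overlapped at 69.4 to 88.5 CPM, and the long-term knockdown libraries were below them. NFKBIA fell by 1.18 on the log2 scale after long-term knockdown (SE 0.124, edgeR adjusted p = 1.44e-06), with 0.00 after short-term knockdown (SE 0.120, edgeR adjusted p = 0.992), −1.12 for ageing of knockdown cells (edgeR adjusted p = 3.22e-06) and an interaction of −1.18 (edgeR adjusted p = 0.000121).

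NFKBIZ encodes IκBζ, a nuclear cofactor needed for a subset of NF-kB targets. It had 12.8, 11.2 and 12.4 CPM in short-term nontarget, 15.7, 25.3 and 12.7 in short-term knockdown, 13.5, 13.6 and 13.3 in long-term nontarget and 28.5, 51.8 and 32.9 CPM in long-term knockdown libraries. Unlike the other 3 feedback genes it was higher in long-term knockdown cells, above all other libraries. It rose by 1.48 (SE 0.233, edgeR adjusted p = 0.000132), and over time in knockdown cells by 1.07 (edgeR adjusted p = 0.00224). After short-term knockdown the value was 0.56 (edgeR adjusted p = 0.180), which passed with no filter on low counts (edgeR adjusted p = 0.0287). The interaction did not pass (0.92, edgeR adjusted p = 0.0880). It did without short-term knockdown replicate 2 (1.25, edgeR adjusted p = 0.0110), without long-term knockdown replicate 1 (1.09, 0.0450) and with no filter on low counts (0.00329).

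TNFAIP3 (A20), a ubiquitin-editing enzyme that ends NF-kB signalling, had 7.11, 9.57 and 6.60 CPM in short-term nontarget, 9.49, 8.48 and 11.7 in short-term knockdown, 4.29, 7.43 and 5.69 in long-term nontarget and 2.77, 1.47 and 2.04 CPM in long-term knockdown libraries. Long-term knockdown libraries were the lowest. It fell after long-term knockdown (−1.42, SE 0.293, edgeR adjusted p = 0.00122) and over time in knockdown cells (−2.19, edgeR adjusted p = 1.29e-05), with 0.34 in the short-term comparison (edgeR adjusted p = 0.419) and an interaction of −1.77 (edgeR adjusted p = 0.00347). TNFAIP3 exons overlap those of AL357060.1 on the opposite strand.

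BIRC3 (cIAP2), a ubiquitin ligase in TNF receptor signalling, had 4.24, 3.80 and 2.51 CPM in short-term nontarget, 6.20, 6.29 and 3.36 in short-term knockdown, 10.1, 6.97 and 6.86 in long-term nontarget and 4.85, 3.96 and 1.19 CPM in long-term knockdown libraries. Long-term nontarget libraries were the highest, and replicate 3 was the lowest of each group. It fell after long-term knockdown (−1.19, SE 0.342, edgeR adjusted p = 0.0135), which was lost without long-term nontarget replicate 1 (edgeR adjusted p = 0.0687). The rise over time in nontarget cells (1.17, edgeR adjusted p = 0.0474) was lost without any 1 of the 6 libraries, replicate 1 (edgeR adjusted p = 0.0930), 2 (0.121) or 3 (0.180) of the short-term nontarget group and long-term nontarget replicate 1 (0.165), 2 (0.0821) or 3 (0.0668). The interaction (−1.79, edgeR adjusted p = 0.0228) was lost without replicate 3 of the short-term nontarget group (edgeR adjusted p = 0.0610), short-term knockdown replicate 1 (0.0623) or 2 (0.0531) or long-term nontarget replicate 1 (0.0579).

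ICAM1, the endothelial and epithelial adhesion molecule that leukocyte integrins bind, had 86.7, 86.6 and 80.6 CPM in short-term nontarget, 73.1, 67.1 and 90.4 in short-term knockdown, 100, 109 and 132 in long-term nontarget and 50.6, 53.6 and 62.1 CPM in long-term knockdown libraries. Long-term nontarget libraries were the highest and long-term knockdown libraries the lowest. ICAM1 fell after long-term knockdown (−1.04, SE 0.130, edgeR adjusted p = 9.89e-06), with −0.14 in the short-term comparison (edgeR adjusted p = 0.578) and an interaction of −0.90 (edgeR adjusted p = 0.00261). Without replicate 3 of all groups the short-term effect passed (−0.30, edgeR adjusted p = 0.0421). It fell over time in knockdown cells (−0.47, edgeR adjusted p = 0.0124), which was lost without short-term knockdown replicate 3 (edgeR adjusted p = 0.0637) or long-term knockdown replicate 1 (0.0606). Ageing of nontarget cells missed the limit (0.43, edgeR adjusted p = 0.0507), and passed without long-term nontarget replicate 1 (0.0327), with no filter on low counts (0.0153), with only the 2 groups compared (0.0240) and with DESeq2 (adjusted p = 0.0368). Of its exon words 21.2% are shared with AC011511.5 or AC011511.2 on the opposite strand, so its counts are uncertain.

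LRG1, a secreted acute phase glycoprotein, had 15.9, 16.4 and 13.2 CPM in short-term nontarget, 1.77, 1.17 and 1.24 in short-term knockdown, 4.69, 5.88 and 6.73 in long-term nontarget and 2.20, 1.61 and 1.87 CPM in long-term knockdown libraries. It was lower in the knockdown libraries at both times, and lower in long-term than in short-term nontarget cells. The short-term log2 fold change was −3.40 (SE 0.241, edgeR adjusted p = 1.42e-07) and the long-term one −1.59 (SE 0.250, edgeR adjusted p = 0.000109). The interaction of 1.82 (edgeR adjusted p = 0.00277) goes with the fall in nontarget cells over time (−1.39, edgeR adjusted p = 0.000153), since the knockdown cells had 0.43 over time (edgeR adjusted p = 0.376). LRG1 exons overlap those of AC011498.4 on the same strand.

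SAA1, an acute phase protein, had 205 counts over the 12 libraries and shares 46.6% of its exon words with SAA2, so its counts are uncertain. Its level was 1.21 to 1.73 CPM in short-term nontarget, 3.42 to 4.39 in short-term knockdown, 1.55 to 2.98 in long-term nontarget and 1.76 to 2.43 CPM in long-term knockdown libraries. Short-term knockdown libraries were thus the highest. It rose after short-term knockdown (1.29, edgeR adjusted p = 0.0115), which was lost without replicate 2 of the short-term nontarget group (edgeR adjusted p = 0.0628) or short-term knockdown replicate 2 (0.0537). The interaction (−1.36, edgeR adjusted p = 0.0498) was lost in 11 of 12 fits without 1 library, all but that without long-term nontarget replicate 2, with adjusted p up to 0.150 without long-term nontarget replicate 3. It was also lost without replicate 3 of all groups (edgeR adjusted p = 0.146), with DESeq2 (adjusted p = 0.131) and with no filter on low counts (edgeR adjusted p = 0.102). Ageing of knockdown cells missed the limit (−0.78, edgeR adjusted p = 0.0561) and passed with the replicate number as a block (−0.79, edgeR adjusted p = 0.0453).

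The 17 genes with too few counts for the test are given by their counts, and their adjusted p-values come from edgeR's test without a filter on low counts. CCL2, the monocyte chemokine MCP-1, had 0, 0 and 0 counts in short-term nontarget and 10, 8 and 7 in short-term knockdown libraries, which is at least 8.28-fold higher against a floor of 3 counts over the group (edgeR adjusted p = 7.48e-05 with no filter). In the long-term cells it had 2 counts without and 26 with knockdown (ratio 13.2, 95% interval 3.30 to 115, edgeR adjusted p = 0.000785 with no filter). CCL2 was thus found in all 6 knockdown libraries and in 1 of the 6 nontarget libraries. The summed level of the leukocyte markers was also above that of nontarget cells in each short-term knockdown library, with PTPRC at 0, and its part in this result was not tested. Intervals and floors cover counting error only.

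CXCL12, the ligand of CXCR4, had counts in long-term knockdown libraries only, 9, 2 and 4. That is at least 5.07-fold higher than in long-term nontarget cells (edgeR adjusted p = 0.00674 with no filter). Long-term knockdown replicate 1 alone held 9 of the 15 counts, so the bound rests largely on that library. CXCL3, a CXCR2 ligand whose exon words are shared in part with CXCL2 and CXCL1, had 3 counts in nontarget and 26 in knockdown cells of the long-term groups (ratio 8.78, 95% interval 2.69 to 45.3, edgeR adjusted p = 0.00329 with no filter). CCL5, a T cell chemokine, had 10 counts in long-term nontarget cells, in 2 of 3 libraries, and 0 in long-term knockdown cells, which is at least 3.29-fold lower (edgeR adjusted p = 0.0243 with no filter). Long-term nontarget replicate 1 alone held 8 of these 10, and the 2 counts left without it are below the floor. CCL5 counts are also uncertain because 15.2% of its exon words occur in other genes. CSF2 (GM-CSF) had 34 counts in short-term and 5 in long-term knockdown cells (ratio 7.12, 95% interval 2.77 to 23.3, edgeR adjusted p = 0.00107 with no filter). Short-term knockdown replicate 1 alone held 23 of the 34.

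**Figure D5:**
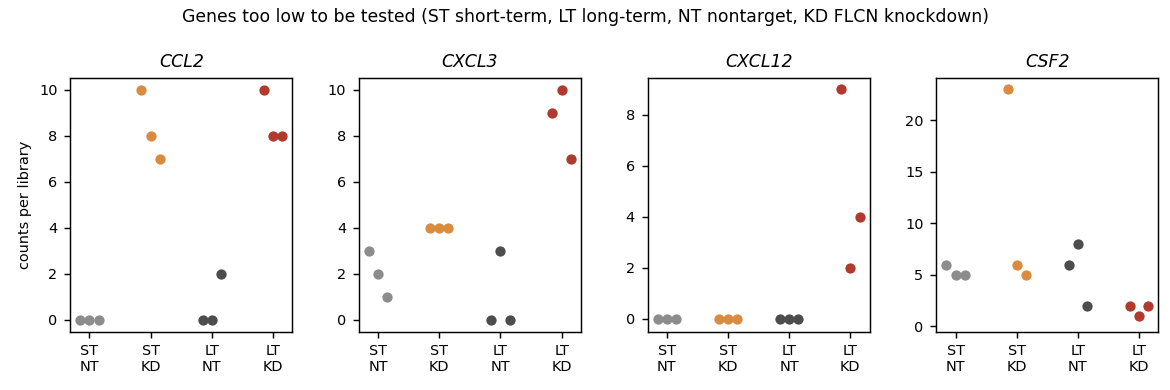
Points give the counts per library of 4 genes too low to be tested, by group. CCL2 has 7 to 10 counts in each knockdown library and 0 to 2 in each nontarget library, and CXCL12 has counts in the 3 long-term knockdown libraries only.

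The remaining 12 untested genes passed no test between groups in edgeR's fit with no filter. The summed counts over all 12 libraries were 26 for LCN2, 22 for IL34, 20 for CXCL1, 19 for SAA2, 12 for CCL20, 8 for TNF, 6 for IL1A, 5 for PTGS2, 2 for IL1B and 2 for CXCL6, and 0 for IL33 and CSF3. TNF and the IL-1 ligands IL1A and IL1B, the classical inducers of NF-kB, were thus at or near 0 in these cells. CXCL1, a CXCR2 ligand, had 2 counts in nontarget and 10 in knockdown cells of the long-term groups (ratio 5.07, 95% interval 1.08 to 47.6, edgeR adjusted p = 0.266 with no filter). Long-term knockdown replicate 1 alone held 7 of these 10. SAA2, which shares exon words with SAA1, had 2 in nontarget and 11 in knockdown cells of the long-term groups (ratio 5.57, 95% interval 1.22 to 51.7, edgeR adjusted p = 0.200 with no filter). IL34 had 9 counts in short-term and 1 in long-term knockdown cells (ratio 9.43, 95% interval 1.31 to 413, edgeR adjusted p = 0.147 with no filter). Short-term knockdown replicate 2 alone held 7 of these 9.

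Beyond the listed genes, 31 of 32 other genes of the NF-kB signalling machinery were tested. After short-term knockdown 1 was higher, TNIP2 (0.51, edgeR adjusted p = 0.0189), and 1 lower, the kinase gene TBK1 (−0.46, edgeR adjusted p = 0.0430), where 5.62% and 4.71% of all tested genes were. Long-term knockdown gave 3 higher and 4 lower genes of the 31, where 13.7% and 15.8% of all tested genes were, so neither share was above that of all genes. The higher ones were the subunit gene REL (1.56, edgeR adjusted p = 0.00280), RBCK1 (0.70, edgeR adjusted p = 0.00206), a part of the linear ubiquitin ligase, and the kinase gene IRAK4 (0.57, edgeR adjusted p = 0.00962). The lower ones were the inhibitor gene NFKBIE (−1.11, edgeR adjusted p = 6.74e-05), the kinase gene IKBKE (−0.98, edgeR adjusted p = 8.04e-05), the adaptor gene MYD88 (−0.38, edgeR adjusted p = 0.0350) and the deubiquitinase gene CYLD (−0.36, edgeR adjusted p = 0.0346). The median log2 fold change of the list was −0.04 after short-term and −0.12 after long-term knockdown, against 0.00 over all genes. REL had 2.28, 1.55 and 2.72 CPM in long-term nontarget and 8.90, 3.96 and 6.44 CPM in long-term knockdown libraries, which did not overlap. In the ageing comparisons 1 was higher and 0 lower in nontarget cells (3.17% and 4.38% of all genes), and 3 were higher and 6 lower in knockdown cells (11.5% and 15.2% of all). The interaction was negative for NFKBIE, IRAK1 and TNIP2 and positive for none at an edgeR adjusted p below 0.05 (8.43% and 4.98% of all genes).

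Of 25 other known NF-kB targets 21 were tested. After short-term knockdown the cyclin gene CCND1 (0.61, edgeR adjusted p = 0.000618) and the caspase-8 regulator gene CFLAR (0.57, edgeR adjusted p = 0.00422) were higher. MMP9 (−1.21, edgeR adjusted p = 0.0418), TNFRSF9 (−0.68, edgeR adjusted p = 0.0122), IER3 (−0.57, edgeR adjusted p = 0.00283) and the urokinase gene PLAU (−0.55, edgeR adjusted p = 0.0126) were lower. That is 2 higher and 4 lower of the 21, where 5.62% and 4.71% of all tested genes were. After long-term knockdown only TNFSF10 was higher (0.82, edgeR adjusted p = 0.0219) and 10 were lower, where 13.7% of all tested genes were higher and 15.8% lower. The largest of these falls were in CCND1 (−5.38, edgeR adjusted p = 4.79e-14), TNFRSF9 (−2.29, edgeR adjusted p = 6.08e-08), the complement gene C3 (−1.82, edgeR adjusted p = 5.86e-06), EBI3 (−1.30, edgeR adjusted p = 0.000444) and PLAU (−1.01, edgeR adjusted p = 2.24e-05). The medians were −0.06 after short-term and −0.33 after long-term knockdown. CCND1 had 112, 124 and 117 CPM in short-term nontarget, 171, 171 and 197 in short-term knockdown, 134, 161 and 141 in long-term nontarget and 3.24, 3.67 and 3.56 CPM in long-term knockdown libraries. In ageing 1 was higher and 2 lower in nontarget cells (3.17% and 4.38% of all genes), and 2 higher and 9 lower in knockdown cells (11.5% and 15.2%). The interaction was positive for 0 and negative for 6 in edgeR's test (4.98% and 8.43%).

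Receptors, antagonists and decoys for these ligands mostly had too few counts for the test: 6 of 25 were tested. After short-term knockdown TNFRSF1B (−2.18, edgeR adjusted p = 0.000332), which encodes TNF receptor 2, and IL1RAP (−0.78, edgeR adjusted p = 0.00369), the second chain of the IL-1 receptor, were lower and 0 were higher, where 4.71% of all tested genes were lower and 5.62% higher. Long-term knockdown gave lower TNFRSF1B, CCR10 (−2.20, edgeR adjusted p = 0.00494) and IL1RAP (−0.94, edgeR adjusted p = 0.000328), and again 0 higher, where 15.8% of all were lower and 13.7% higher. TNFRSF1B had 116 counts in nontarget and 1 in knockdown cells of the long-term groups (ratio 114, 95% interval 20.1 to 4560, edgeR adjusted p = 3.12e-07). CCR10 is the receptor of CCL28. The medians were −0.77 and −0.78. Ageing gave 0 called genes in nontarget cells (3.17% higher and 4.38% lower of all) and 0 higher and 2 lower genes in knockdown cells (11.5% and 15.2% of all). The interaction gave 1 negative gene, TNFRSF1B, and 0 positive ones (8.43% and 4.98% of all).

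All 16 genes of JAK-STAT signalling below the IL-6 family receptors were tested. JAK2 was lower after short-term knockdown (−0.94, edgeR adjusted p = 0.0178). JAK1 (0.51, edgeR adjusted p = 0.000329) and the phosphatase gene PTPN6 (0.67, edgeR adjusted p = 0.00962) were higher after long-term knockdown. The medians were −0.02 and 0.01. Over time JAK1 rose in nontarget cells (0.42, edgeR adjusted p = 0.00691) and knockdown cells (0.95, edgeR adjusted p = 5.26e-07), and JAK2 fell in nontarget cells (−0.80, edgeR adjusted p = 0.0462). The interaction was positive for JAK1 (0.53, edgeR adjusted p = 0.00871). Called genes of this list are named in part only.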

How the data were processed

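RNA-seq of 12 HK2 libraries, 4 groups of 3 assigned by their titles, was analysed. Per the labels and the study's methods, reads were trimmed with fastp, mapped with STAR to GRCh38 and counted per gene with featureCounts. Versions and the strand setting are not given in the sources used here. The authors deposited raw counts as 1 table and as files per library, which differed in 0 values. The authors also deposited normalized values, a score which as deposited was scaled per library: 99.9% were within 1 of the count divided by a factor per library, and these were used only for that check. The study tested differences with DESeq2.

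Raw counts were analysed with edgeR 4.0.16 in R 4.3.3: filterByExpr (13959 genes, 99.8% of counts), TMM factors, a robust quasi-likelihood fit of all 12 libraries with a term per group, two-sided tests, Benjamini-Hochberg adjustment over all genes tested, edgeR's default prior count and calls at an adjusted p below 0.05. The SE is the size of the log2 fold change divided by the square root of F. The code was tested on simulated data. IDs were matched to GENCODE 29 (55661 with the same version, 2364 with another, 263 not matched), which also gave exon lengths, overlaps and exon words of 50 bases found in other genes. The members and lists were chosen with earlier results of these data known. Genes with an adjusted p below 0.05 in at least 1 comparison, groups that do not overlap there and a mean of at least 50 counts in the higher group were given in full, 20 genes, and the others by ranges and counts. From pathway lists (NF-kB machinery, other NF-kB targets, receptors and antagonists, JAK-STAT), at most 5 called genes of largest fold per comparison were named. Intervals are 95% and exact.

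Replicate numbers come from the labels. Deviations from the group means of same-numbered libraries correlated at 0.123 to 0.458 between the long-term groups and at 0.223 to 0.455 between the knockdown groups. That is over 0.1 in every pair of these 2 comparisons. A fit with the number as a block was therefore also made, for all 5 comparisons. Calls are those of the fit without the block unless the block is named. The other alternatives were RLE factors, DESeq2 1.42.0, no filter, a mean of at least 10 CPM, a fold change of at least 2.5, only the 2 groups compared and each library left out. Leaving out replicate 3 of all groups and a prior count of 2 were added after seeing the data.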

Additional observations from a re-analysis of the deposited data

Results flagged for a closer look

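The effect of knockdown differed between long-term and short-term cells by the interaction test (edgeR, Benjamini-Hochberg adjusted p below 0.05) for 16 of the 28 tested genes, 4 positive and 12 negative, where 4.98% and 8.43% of all tested genes were. The long-term minus short-term log2 fold change was 3.18 for CXCL5, 2.21 for CXCL8, 3.25 for IL1R1 and 1.82 for LRG1. It was −2.19 for IL6R, −2.12 for IL18, −1.79 for BIRC3, −1.77 for TNFAIP3, −1.42 for CXCL16, −1.36 for SAA1, −1.26 for CSF1, −1.24 for IL32, −1.18 for NFKBIA, −1.05 for NFKB2, −0.94 for RELB and −0.90 for ICAM1. Those of CXCL16, SAA1, RELB and BIRC3 were lost in 4, 11, 8 and 4 of the 12 fits without 1 library, and the other 12 passed in every such fit.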

How the results depend on the processing

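No called or uncalled effect of the 28 tested genes changed direction as a call in any alternative. Of 62 calls over the 5 comparisons, 62 passed with RLE factors, with the replicate block and with a prior count of 2, 60 with DESeq2, 59 with no filter and 59 without replicate 3 of all groups. Only the 2 groups compared kept 45 of 46, and a mean of at least 10 CPM, which left 20 of the genes to test, 42 of 42. In fits without 1 library 403 calls passed and 65 did not. With a fold change of at least 2.5 also required, the count of called genes was 1 for short-term knockdown, 9 for long-term knockdown, 4 for ageing of nontarget cells, 5 for ageing of knockdown cells and 10 for the interaction, since fewer genes reach that size. At 10 CPM it was 2 for short-term knockdown, 4 for ageing of nontarget cells and 10 for the interaction, since fewer genes are tested. Without 1 library the counts ranged from 2 to 4, 19 to 22, 4 to 6, 12 to 18 and 12 to 17. Same-numbered libraries of the short-term groups correlated at 0.0172 to 0.111 and those of the nontarget groups at −0.034 to 0.0767, so there the samples share only a number. With the replicate number as a block, 10 genes were called after short-term knockdown, 11 for ageing of nontarget cells and 20 for the interaction, and the cause was not tested. IL11 was gained in all 3. CXCL16, CX3CL1, OSMR and NFKB2 were also gained after short-term knockdown, and CXCL16, LIFR and ICAM1 for ageing of nontarget cells. CX3CL1, IL6ST and NFKBIZ were gained in the interaction. The block gave 21 called genes after long-term knockdown, 8 higher and 13 lower, and 18 for ageing of knockdown cells, 6 higher and 12 lower. In these 2 comparisons it changed no call but those given for LIF, NFKB2, RELB and SAA1. Some tested genes, such as CXCL2 and SAA1, had few counts, and the part of sequencing depth in their results was not tested.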
